A study of Homo sapiens with 14 samples.

Results

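The Nuclear factor I (NFI) family of transcription factors was followed at its 4 human loci, NFIA, NFIB, NFIC and NFIX, in RNA of HEK293T cells and of HEK293T cells lacking SETD2. The members were all transcript rows whose locus covered a fixed point inside each gene on the human build hg19, together with 3 transcripts listed by their Ensembl identifiers, which all lay at those loci. This gave 63 transcripts of 204092 in the deposited tables, 22 at NFIA, 14 at NFIB, 11 at NFIC and 16 at NFIX. The family was selected on measured values of the same comparison, the deposited FPKM and q-values of these tables, so its levels and folds below are a description and are not support for a difference. HEK293T is an established human line of embryonic kidney origin that expresses the large T antigen of SV40. The groups were wild type HEK293T cells and HEK293T cells with the genotype SETD2 Knockout, with 3 RNA libraries labelled for each, and the knockout cells received no other labelled treatment. SETD2 is the enzyme that trimethylates histone H3 at lysine 36 (H3K36me3) over the bodies of active genes. The labels do not say how the knockout was made, whether the cells were a clone, or whether libraries came from separate cultures. The 8 ChIP samples of the series were not analysed here.

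NFI proteins bind DNA as dimers, as homodimers or as heterodimers between family members. They share a conserved DNA-binding domain near the amino terminus and differ more in the carboxyl-terminal part, which activates or represses transcription, and each gene gives many spliced transcripts. Their best known site is a palindrome of the pentamers TTGGC and GCCAA, first studied in adenovirus replication. NFIA and NFIB act in the switch from neuron to glia production in the developing brain, NFIB also acts in lung maturation, NFIC in tooth root formation, and NFIX in brain and in skeletal muscle.

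A 300-base window around a start site, 250 bases before it and 50 after, is shown for each gene as background. No link between these sequences and the RNA values was tested. All 4 genes matched the RefSeq promoter table, whose build is GRCh38.p14. The window printed is the first listed that holds either pentamer and, for NFIC, the one window listed. Sequences run 5′ to 3′ on the strand of the gene, and capitals mark TTGGC or GCCAA.
NFIA, plus strand, chr1:61076977-61077276: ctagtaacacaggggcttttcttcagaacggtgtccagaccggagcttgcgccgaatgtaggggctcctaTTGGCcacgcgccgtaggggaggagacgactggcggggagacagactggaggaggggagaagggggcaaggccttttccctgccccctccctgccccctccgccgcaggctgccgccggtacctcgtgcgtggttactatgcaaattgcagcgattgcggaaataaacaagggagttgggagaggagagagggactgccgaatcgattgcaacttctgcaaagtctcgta
NFIB, minus strand, chr9:14322338-14322637: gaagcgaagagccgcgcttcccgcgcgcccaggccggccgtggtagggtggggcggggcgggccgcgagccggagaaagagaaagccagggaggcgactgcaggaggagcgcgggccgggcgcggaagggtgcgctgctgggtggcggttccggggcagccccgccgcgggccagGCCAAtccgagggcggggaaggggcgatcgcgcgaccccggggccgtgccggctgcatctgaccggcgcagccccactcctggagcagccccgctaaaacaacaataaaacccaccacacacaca
NFIX, plus strand, chr19:13024329-13024628: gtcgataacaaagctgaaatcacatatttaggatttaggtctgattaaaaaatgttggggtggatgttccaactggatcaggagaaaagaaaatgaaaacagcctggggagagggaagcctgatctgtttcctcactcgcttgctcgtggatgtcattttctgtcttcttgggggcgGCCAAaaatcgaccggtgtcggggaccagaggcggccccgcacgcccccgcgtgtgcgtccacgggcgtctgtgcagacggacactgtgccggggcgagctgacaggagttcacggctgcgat
NFIC, plus strand, chr19:3359380-3359679: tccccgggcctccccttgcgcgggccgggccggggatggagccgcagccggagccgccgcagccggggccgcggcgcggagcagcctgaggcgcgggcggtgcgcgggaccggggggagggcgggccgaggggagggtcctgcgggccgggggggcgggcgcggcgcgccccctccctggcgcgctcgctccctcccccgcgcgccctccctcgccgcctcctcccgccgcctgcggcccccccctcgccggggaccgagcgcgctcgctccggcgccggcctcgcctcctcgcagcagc
These positions are on GRCh38.p14 and are not comparable with the hg19 positions used for the RNA values. The pentamer lay 180 bases before the start in the NFIA window, 75 in NFIB and 73 in NFIX. In the NFIA and NFIB windows it overlaps a CCAAT or ATTGG pentamer, another common promoter motif. Searched for TTGGC and GCCAA, which read each other on the opposite strand, 9 of the 19 windows listed for the 4 genes held at least 1, against 45.6% of all 35116 windows. By gene these were 1 of 3 windows for NFIA, 6 of 10 for NFIB, 2 of 5 for NFIX and 0 of 1 for NFIC. The printed NFIA, NFIB and NFIX windows were picked for holding a pentamer, so its presence there says nothing about the RNA values. The full palindrome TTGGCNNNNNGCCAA was found in 0 of the 19 windows and in 0.0285% of all windows. The printed windows held 20 CG dinucleotides for NFIA, 37 for NFIB, 20 for NFIX and 51 for NFIC, where the median of all windows was 14. Over all listed windows of a gene the counts ran from 10 to 41 for NFIA, 3 to 48 for NFIB and 7 to 46 for NFIX. The RNA tables do not say which start site a read came from.

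RNA levels were FPKM (sequenced fragments divided by transcript length in kilobases and by the number of mapped fragments), deposited as a single value for each transcript in each group. No value for a single library was used here, so no spread between libraries was computed and the depth is unknown. The errors given are the bounds deposited with the FPKM tracking table, for which the file states no confidence level. The knockout values of the tracking table differ from those of the table of tests, with a ratio between 0.652 and 1.65 from the 5th to the 95th percentile of transcripts of at least 0.5 FPKM, while the wild type values differed by a nearly fixed factor with a median of 0.976. Values are from the table of tests unless the tracking table is named. Gene names are absent from the files, so loci other than the NFI loci were also found by hg19 points. The sum over transcripts of the SETD2 locus was 5.64 FPKM in knockout cells and 13.7 FPKM in wild type cells, with 0 of 6 tested transcripts called by Cuffdiff (lowest unadjusted p = 0.0379 in the authors' deposited table), and this does not show whether the protein is lost. The VIM locus (vimentin), which HEK293T cells express strongly, held 551 and 494 FPKM, while its transcript with both lower bounds above 0 stood lower in the knockout, at 360 against 405 FPKM. The PAX2 locus, of a kidney developmental factor, held 4.60 and 4.30 FPKM, and its transcript with both lower bounds above 0 stood at 1.03 and 2.20 FPKM (unadjusted Cuffdiff p = 0.0035 and q = 0.552 in the authors' deposited table). The locus of the epithelial keratins KRT8 and KRT18 held 43.1 FPKM in knockout cells and 434 FPKM in wild type cells, of which 308 FPKM was 1 transcript listed at 0 in the knockout with a wild type interval of 0 to 2235 FPKM. In the tracking table that transcript was at 48.5 FPKM in the knockout, and the locus sums were 109 and 425 FPKM. PTPRC (blood cells) and HBB (red cells) were listed at 0 in both groups, ALB (liver) held 0.123 and 0.341 FPKM, and COL1A1 (fibroblasts) 13.1 and 11.1 FPKM.

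Summed over transcripts, the loci of NFIA, NFIB and NFIX had group values more than 2 times as high in knockout cells as in wild type cells, while NFIC had nearly equal values. The NFIX locus held 41.8 FPKM in knockout cells and 14.3 FPKM in wild type cells, a ratio of 2.93. The NFIB locus held 6.67 and 2.51 FPKM (2.66-fold), and the NFIA locus 21.5 and 8.66 FPKM (2.48-fold). The NFIC locus held 15.5 and 13.1 FPKM, a ratio of 1.18. A locus sum at least 2-fold higher in the knockout was found at 4.64% of the 12424 loci of at least 1 FPKM, and one at least 1.5-fold higher at 13.1%. Because the family was chosen with this comparison in view, nothing is read from 3 of its 4 loci being in that class. The log2 folds stood at the percentiles 97.3 (NFIA), 97.7 (NFIB), 67.4 (NFIC) and 98.1 (NFIX) of those loci, whose median log2 fold was 0.06. With the tracking table the folds were 1.94 for NFIA, 2.35 for NFIB and 2.83 for NFIX, and the NFIC fold was 0.980, so that the NFIC value lay above the wild type in the table of tests and slightly below it in the tracking table. In bulk RNA a change in the share of cells that express a gene and a change of RNA per cell cannot be told apart.

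**Figure D1:**
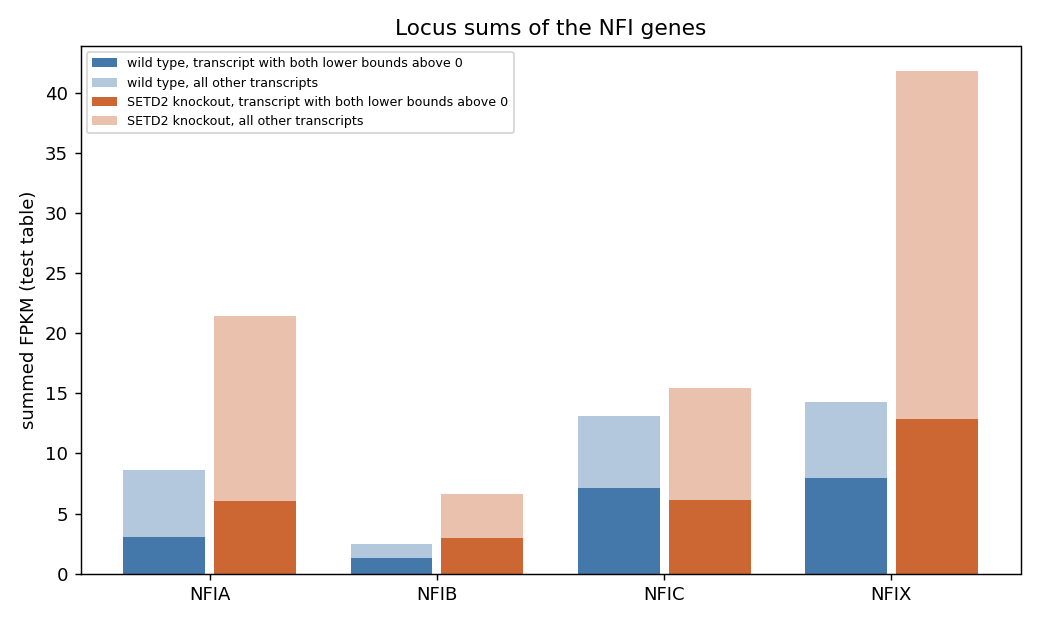
Bars give the FPKM summed over all transcripts of each NFI locus in wild type and SETD2 knockout cells (table of tests, group values with no error bars); the dark part is the transcript whose deposited lower bound is above 0 in both groups and the pale part all other transcripts. The pale part makes up most of the knockout bar of each gene, as at NFIX, 41.8 FPKM in all, and NFIA, 21.5 FPKM in all. The dark part is 44.6% of the knockout bar at NFIB and 39.8% at NFIC.

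The sums rest to different degrees on transcripts with a usable error. Of the 63 transcripts 24 were tested by the authors, 6 at each gene, and 39 were not. At each gene exactly 1 tested transcript had a deposited lower bound above 0 in both groups, and the other 20 tested transcripts had a lower bound of 0 in both. Across these 4 well-bounded transcripts the knockout value was 1.97 times the wild type at NFIA, 2.32 times at NFIB, 1.61 times at NFIX and 0.861 times at NFIC. At least a 1.5-fold higher knockout value was listed for 7.72% of the 12316 tested transcripts with such bounds in all genes, whose median log2 fold was -0.0042. The deposited intervals of the groups overlapped for all 4, as they did for 98.9% of those transcripts (1.1% did not overlap). Summed over the 4, the family stood at 28.1 FPKM in knockout cells and 19.5 FPKM in wild type cells, a 1.44-fold difference, where the sums over all 63 transcripts were 85.4 and 38.5 FPKM, a 2.22-fold difference.

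NFIA (1:61330931-61928465 on hg19) held the one called transcript of the family. ENST00000403491 rose from 3.08 FPKM in the wild type to 6.06 FPKM in the knockout, with p = 0.0001 and q = 0.0392 in the authors' deposited table. Calls at q of at most 0.05 made up 0.255% of the 85852 tested transcripts, and those higher in the knockout 0.0629%. This transcript was among the 24 called at the largest q below the threshold, and the nearest transcripts outside it had q = 0.0532 in the authors' deposited table. Its tracking values were 5.91 FPKM in the knockout, with bounds of 3.42 and 8.39 FPKM, and 3.01 FPKM in the wild type, with bounds of 1.68 and 4.33 FPKM. The intervals thus overlap, though the authors' test passed, and the fold was the same in both tables, 1.97. None of the remaining tested NFIA transcripts was called. ENST00000371184 was listed at 6.02 FPKM in knockout cells and 1.46 FPKM in wild type cells, ENST00000493627 at 4.41 and 1.41 FPKM, and ENST00000479364 at 3.42 and 0.415 FPKM. ENST00000485903 was the one tested NFIA transcript with the lower value in the knockout, 0.791 against 1.20 FPKM. Of the 22 transcripts 10 were listed at 0 in both groups and 5 at 0 in the knockout alone. The called transcript made up 28.2% of the locus sum in knockout cells and 35.6% in wild type cells.

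**Figure D2:**
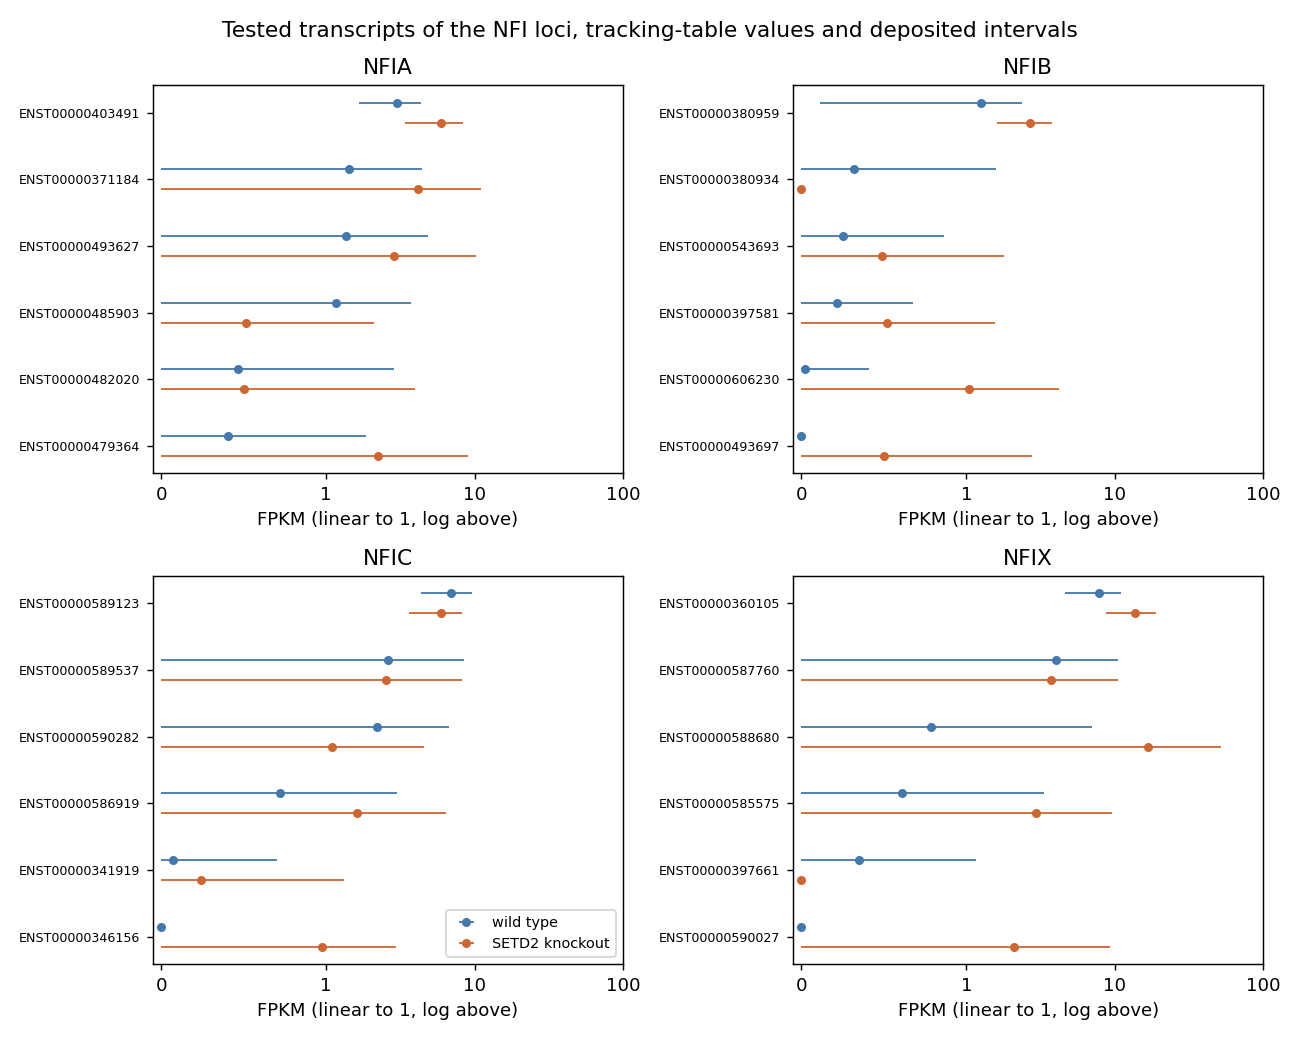
Points give the tracking-table FPKM of the 6 tested transcripts at each NFI locus in wild type and SETD2 knockout cells, and lines the deposited bounds; the axis is linear to 1 FPKM and logarithmic above. At each gene the top transcript is the one whose bounds exclude 0 in both groups, and its intervals overlap between the groups, as at NFIA with 3.42 to 8.39 against 1.68 to 4.33 FPKM.

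NFIB (9:14081842-14398982) was the lowest of the family in both groups and no transcript of it was called. The well-bounded ENST00000380959 was listed at 2.98 FPKM in knockout cells and 1.28 FPKM in wild type cells. Its tracking bounds were 1.61 and 3.79 FPKM in the knockout and 0.115 and 2.39 FPKM in the wild type, so the intervals overlap. In the authors' deposited table it had p = 0.0548 and q = 0.991. ENST00000606230, the next in the knockout, stood at 1.40 FPKM against 0.0243 FPKM, and its knockout bounds were 0 and 4.21 FPKM. ENST00000493697 stood at 0.772 FPKM in the knockout and was listed at 0 in the wild type. ENST00000380934 stood at 0.327 FPKM in the wild type and at 3.25e-05 FPKM in the knockout, with p = 0.423 in the authors' deposited table, so the family's most unequal ratio belongs to a transcript of low level. ENST00000380953, which the selection listed by its identifier, was listed at 0 in knockout cells and at 0.178 FPKM in wild type cells and was not tested. It made up 7.10% of the wild type locus sum.

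NFIX (19:13106422-13209610) was the highest of the family in both groups. Its well-bounded transcript ENST00000360105 was listed at 12.9 FPKM in knockout cells and 8.0 FPKM in wild type cells. The tracking values were 13.8 FPKM with bounds of 8.71 and 18.9 FPKM in the knockout, and 7.81 FPKM with bounds of 4.59 and 11 FPKM in the wild type. It did not pass, with p = 0.0051 and q = 0.698 in the authors' deposited table. It and the called NFIA transcript were the 2 of 24 tested NFI transcripts with an unadjusted p below 0.05, a class that held 2.38% of all tested transcripts. The larger part of the NFIX difference came from another transcript, ENST00000588680, at 18.6 FPKM in knockout cells and 0.801 FPKM in wild type cells. Its knockout tracking value was 16.6 FPKM with bounds of 0 and 52.1 FPKM, and in the authors' deposited table it had p = 0.306. Without it the NFIX sum was 23.3 FPKM in knockout cells and 13.5 FPKM in wild type cells, a ratio of 1.73 in place of 2.93. ENST00000585575 was listed at 4.50 and 0.627 FPKM, and ENST00000587760 at 5.07 and 4.10 FPKM. The share of the locus sum held by ENST00000360105 was 30.7% in knockout cells and 56.1% in wild type cells.

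NFIC (19:3359561-3469215) was the one member whose well-bounded transcript had the lower value in the knockout. ENST00000589123 was listed at 6.16 FPKM in knockout cells and 7.15 FPKM in wild type cells, with p = 0.380 in the authors' deposited table. Its tracking bounds, 3.64 and 8.21 FPKM in the knockout and 4.34 and 9.62 FPKM in the wild type, overlap over most of their width. The locus sum was higher in the knockout through transcripts with a lower bound of 0. Among them ENST00000589537 stood at 3.88 and 2.67 FPKM, ENST00000586919 at 2.28 and 0.737 FPKM, and ENST00000346156 at 0.950 FPKM in knockout cells and 0 in wild type cells. ENST00000590282 went the other way, with 1.70 and 2.27 FPKM. ENST00000443272, the listed NFIC transcript, was at 0 in both groups in both tables.

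Over the 20 tested NFI transcripts above 0 in both groups 16 had the higher value in the knockout and 4 the lower, where 55.0% of the 75399 such transcripts of all genes were higher. Transcripts of a locus share reads, so these are not independent. Values of 0 went the other way: 16 NFI transcripts were listed at 0 in the knockout alone and 3 in the wild type alone. All of the 16 were under 0.36 FPKM in the wild type, the highest at 0.359 FPKM. Among them ENST00000603233 of NFIA was at 0.166 FPKM in the knockout in the tracking table, with bounds of 0 and 1.46 FPKM. The share of all transcripts at 0 in the knockout alone was not computed. Over all 204092 transcripts 52.4% were listed at 0 in knockout cells and 41.3% in wild type cells, against 55.6% and 34.9% of the NFI transcripts. RefSeq lists an antisense gene overlapping NFIA, NFIB and NFIX (NFIA-AS1, NFIB-AS1 and NFIX-AS1) and none overlapping NFIC. At NFIB it also lists RPL7AP47, TRH-GTG1-6, LOC124902120 and LOC124902121 as overlapping. The sources used here do not say whether the counting used strand, so reads of a gene and its antisense partner cannot be told apart.

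The order of the members was compared on the well-bounded transcripts, in FPKM and so per length. In the wild type the order from high to low was NFIX, NFIC, NFIA and NFIB. The tracking intervals of NFIX and NFIC overlapped, those of NFIC (4.34 to 9.62 FPKM) and NFIA (1.68 to 4.33 FPKM) fell just short of each other, and those of NFIA and NFIB overlapped. In the knockout NFIX stood above NFIC and NFIA without overlap, at 8.71 to 18.9 FPKM against 3.64 to 8.21 and 3.42 to 8.39 FPKM. NFIC and NFIA were then nearly level, at tracking values of 5.93 and 5.91 FPKM, and the interval of NFIB met that of NFIA. Of the family sum over all transcripts, NFIC made up 34.0% in the wild type and 18.1% in the knockout, and NFIX 37.0% and 48.9%. NFIA made up 22.5% and 25.1%, and NFIB 6.51% and 7.80%. With the tracking table the NFIA share was 22.5% in the wild type and 22.1% in the knockout, while the other shares kept their direction. Among the 12424 loci the wild type sums stood at the percentiles 14.6 (NFIB), 36.7 (NFIA), 45.8 (NFIC) and 47.6 (NFIX), and the knockout sums at 30.6, 55.6, 47.9 and 70.5.

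The expressed loci next in order to the NFI genes are given beside them as a description. Next in order does not mean close by. They lay up to 3133 kb from NFIB, 1966 kb from NFIA, 633 kb from NFIX and 312 kb from NFIC. The 5 expressed loci on each side of NFIB had log2 folds between -2.82 and 0.06, with a median of -0.21, against 1.41 for NFIB itself. Those of NFIX lay between -0.56 and 0.39, with a median of -0.09, against 1.55. None of the 10 neighbours of NFIB or of the 10 of NFIX was as high as the NFI locus between them. The family was selected on values of this comparison, and these 2 loci stood at the percentiles 97.7 and 98.1 of all 12424 loci. Most loci from anywhere would therefore lie below them, and nothing about their place on the chromosome is read from this. The neighbours of NFIA lay between -0.70 and 3.45, with a median of 0.08, and 1 of the 10, at 1.74 FPKM in knockout cells and 0.159 FPKM in wild type cells, was above the 1.31 of NFIA. Around NFIC the median was -0.20 and 2 of 10 neighbours were above its 0.24. None of these 40 neighbouring loci held a called transcript, where 1.18% of the 12424 loci did. NFIC and NFIX lie on the same chromosome, whose 793 loci had a median log2 fold of -0.09.

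**Figure D3:**
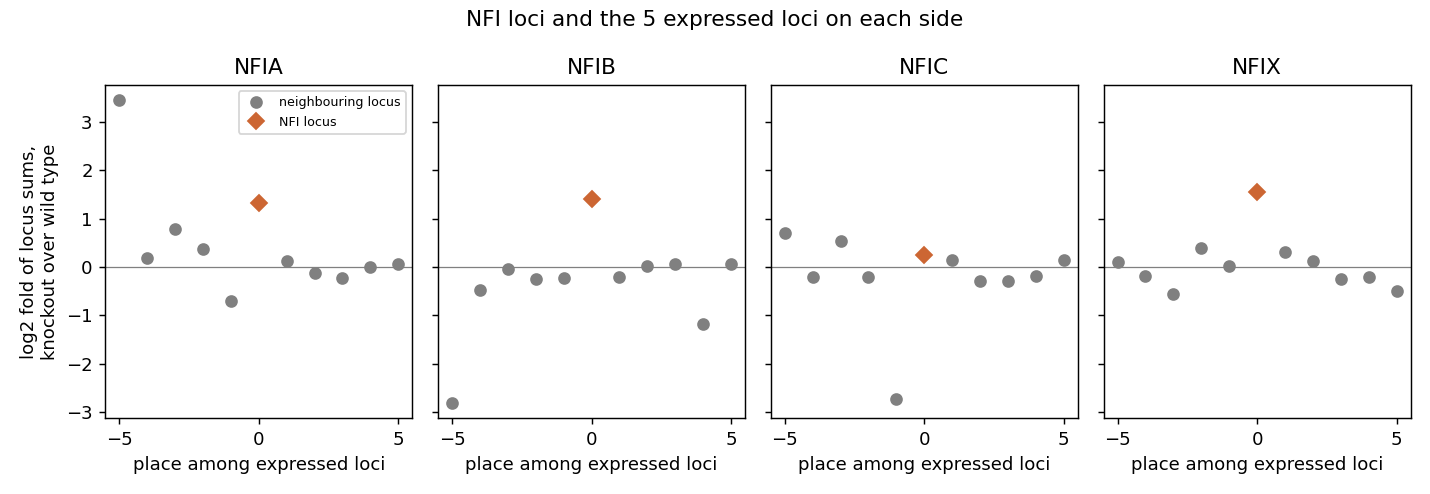
Each panel gives the log2 fold of locus sums (knockout over wild type, table of tests) for an NFI locus at place 0 and for the 5 expressed loci on each side in chromosomal order; the points are group values with no error. The diamonds of NFIB (1.41) and NFIX (1.55) lie above all 10 of their neighbours, and that of NFIA (1.31) above 9. Places give order and not distance, and the NFI loci were selected on values of this comparison.

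Loci on other chromosomes with the most similar sums in both groups were found by distance in log2 FPKM, over the 2 group values. The nearest to NFIA was 6:3064225-3115421, at 20.7 FPKM in knockout cells and 8.60 FPKM in wild type cells. For NFIB it was 5:85383344-85383665 (7.09 and 2.59 FPKM), for NFIC 16:57792129-57896957 (15.7 and 13.2 FPKM) and for NFIX 3:196466728-196559518 (42.8 and 14.8 FPKM). The second and the third nearest were 18:52889562-53332018 and 8:38585704-38710546 for NFIA, 15:40570377-40600136 and 6:143069580-143266338 for NFIB, 18:43563502-43652238 and 6:131894284-131949369 for NFIC, and 1:228744885-228788150 and 15:65107831-65117867 for NFIX. The 3 nearest loci of each gene lay within a distance of 0.189 for NFIA, 0.175 for NFIB, 0.0345 for NFIC and 0.134 for NFIX.

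Genes linked to NFI function were read from a list of 13: the partners and cofactors SOX9, POU3F2, FOXA1, SKI and TBP, 7 genes that NFI proteins are known to act on, and the signal TGFB1. The deposited spans of 4 of them, SOX9, FOXA1, GFAP and TGFB1, are more than 2 times as long as the gene in RefSeq, so the counts were taken over the other 9, a choice made after seeing the data. Of the 25 tested transcripts of those 9 genes 0 were called in either direction, against the background of 0.255%. An unadjusted Cuffdiff p below 0.05 was listed for 1 of the 25, beside 2.38% of all tested transcripts. Its p was 0.01095 in the authors' deposited table. The wider spans held 79 tested transcripts, of which 0 were called and 4 had such a p, and these cannot be assigned to the linked genes. By locus sums 6 of the 9 reached 1 FPKM in a group, of which 4 had the higher value in the knockout, beside 56.1% of all loci, and 2 the lower. Their median log2 fold was 0.26, beside 0.06 over all loci. At least 1.5-fold higher was 1 of the 6, POU3F2, beside 13.1% of all loci, and in the tracking table its fold was 1.34. The lowest p belonged to the single transcript of POU3F2, a neural POU factor, at 7.66 FPKM in knockout cells and 5.03 FPKM in wild type cells (q = 0.991 in the authors' deposited table). Its tracking bounds, 4.15 to 9.0 and 3.02 to 6.80 FPKM, overlap. FOXA1, a pioneer factor that binds beside NFI, had a leading transcript at 4.14 and 3.01 FPKM, and its locus sum, 7.99 and 5.12 FPKM, takes in transcripts spread over 612940 bases. The leading transcript of SOX9, which acts upstream of NFIA in glial development, was at 2.36 and 1.96 FPKM. SKI, a corepressor that partners with NFI, stood at 26.0 and 31.6 FPKM, and TBP, the TATA-binding protein, at 40.0 and 33.0 FPKM.

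Among genes that NFI proteins act on, HES1, a Notch effector repressed by NFIA in neural progenitors, stood at 27.0 FPKM in knockout cells and 19.9 FPKM in wild type cells. EZH2, the H3K27 methyltransferase repressed by NFIB, stood at 40.3 and 34.0 FPKM. CDKN1A, the cell cycle inhibitor p21, stood at 32.1 and 35.7 FPKM. FABP7, a radial glial lipid-binding protein, INSC, a spindle orientation gene, and COL1A2, a collagen chain, stayed under 1 FPKM in both groups. The locus covering GFAP, the astrocyte filament gene, held 62 transcripts and 200.1 FPKM in both groups, and the locus covering TGFB1 also held 62 transcripts, with 497 and 437 FPKM. Those spans are wider than the genes and take in other genes, so their sums are not levels of GFAP or TGFB1.

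**Figure D4:**
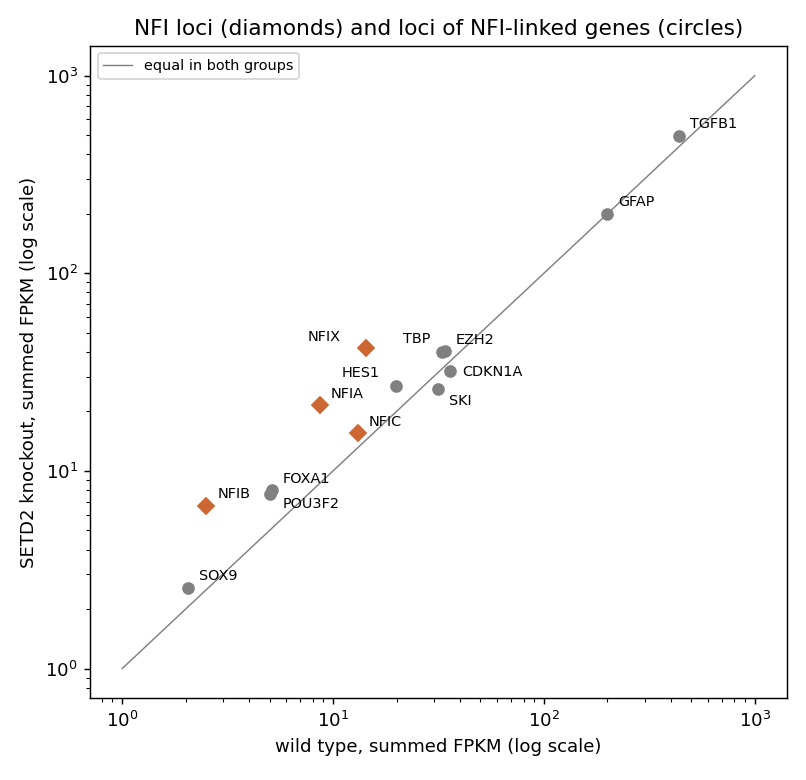
Each point gives the locus sum in FPKM in the wild type (x axis) and in the SETD2 knockout (y axis), both on log scales, for the 4 NFI loci (diamonds) and the 10 loci of linked genes of at least 1 FPKM (circles); the line marks equal values. NFIA, NFIB and NFIX lie farthest above the line and NFIC close to it, and the points named GFAP, TGFB1, SOX9 and FOXA1 are spans much wider than those genes.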

How the data were processed

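Per the file headers, the authors deposited FPKM for every transcript in each of the 2 groups, with bounds, and a table of tests with FPKM, a log2 fold whose sign was turned here so that positive is higher in the knockout, a test score, a p-value and a q-value. The build hg19 and the tools TopHat, Cuffdiff and Bowtie 1.1.2 come from the submitters' processing notes, which give them no role; the annotation used is not stated there. A wild type RNA library carries a ChIP protocol in its label. Rows were assigned to genes by hg19 points inside loci, with 1 added to each start. FPKM were summed per locus over chromosomes 1 to 22 and X, leaving out loci with a failed estimate; none of the 63 NFI transcripts had failed. No test was computed: calls are the authors' q-value at 0.05. Their p-values speak only for the sequenced libraries, whose spread may be technical. The members, the gene lists and the points were chosen with earlier results of these data known. Named items were all NFI transcripts that reached 1 FPKM in either group, were called or were listed, the linked genes, and the 3 most similar loci; further low transcripts were named after their values were seen, and so was the class with both lower bounds above 0. The summing step was run on simulated data without noise, where all transcripts of a locus had the same fold. It therefore checks only the arithmetic. Python 3.11.15 with pandas 2.3.3, numpy 2.4.6 and matplotlib 3.10.9 was used.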

Additional observations from a re-analysis of the deposited data

Results flagged for a closer look

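ENST00000380924 of NFIB was listed at 0 in both groups in the table of tests and at 0.356 FPKM in the knockout in the tracking table, with bounds of 0 and 1.85 FPKM, where the wild type was at 0. It is named because its signal appears only in the tracking table and not in the table of tests, from which the main values were taken. The tracking-table sum of NFIB includes it.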

How the results depend on the processing

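Of 39 alternative values, 34 kept their direction and lay within 1.5-fold of the reported value, or for counts of calls within 1.5 times. These bounds were used because no replicate spread could be had. Some of the 34 were fixed in advance, in whole or in part. Leaving out the listed transcripts changes nothing at NFIX, which has none, or at NFIC, whose listed transcript was at 0. A looser q-value cannot drop a call, and fewer linked genes cannot add a call to 0. The 34 are therefore a description and no measure of robustness. At a q-value of 0.01 the count of called NFI transcripts went from 1 to 0. The NFIC log2 fold went from 0.24 to -0.029 with the tracking table and to -0.22 with the well-bounded transcript alone. The NFIX log2 fold went from 1.55 to 0.79 without ENST00000588680 and to 0.68 with the well-bounded transcript alone. The alternatives that leave out a transcript or keep the well-bounded one, and that with the narrower spans of linked genes, were chosen after seeing the data. Centring on the median of all loci shifted log2 folds by 0.06. No paired analysis was possible because the tables hold group values without libraries, and leaving out replicates was not run for the same reason. Folds for ENST00000380953 and ENST00000443272 were not computed, since they were at 0 in the knockout. Depth is unknown, and most NFI transcripts have a lower bound of 0.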
